A study of Homo sapiens with 6 samples.

Results

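The RB pocket proteins and E2F factors were examined in Hep3B cells with lowered DAGLA. The group held 10 genes chosen by name, namely the pocket proteins RB1, RBL1 and RBL2, the E2F factors E2F1, E2F2, E2F3, E2F4, E2F7 and E2F8, and the DP partner TFDP1, and all 10 had a value among the 29908 genes of the expression table. Hep3B is an established hepatocellular carcinoma cell line that is known for a defective RB1. DAGLA encodes diacylglycerol lipase alpha. A lentivirus with a short hairpin RNA against it had been used to make the Hep3B-KD cells, and a control lentivirus to make the Hep3B-Con cells, which the sample titles call shControl and the design text an empty vector. Both groups were grown with fetal bovine serum, in DMEM by the sample records and in MEM-alpha by the methods of the study, and were selected with puromycin for stable lines. Each group had 3 libraries, described as biological replicates without a word on whether they were separate cultures, so p-values measure the spread between these samples, and with 1 hairpin the loss of DAGLA and any other effect of that hairpin cannot be told apart.

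Pocket proteins bind E2F factors and, with them, sit on the promoters of cell cycle genes and keep them silent. Cyclin-dependent kinases phosphorylate the pocket proteins late in G1 phase, which frees the activator factors E2F1, E2F2 and E2F3 to switch on genes of DNA synthesis. E2F4 acts mainly with RBL1 (p107) and RBL2 (p130) in the DREAM repressor complex of resting cells, while E2F7 and E2F8 repress without a pocket protein, and most E2F factors bind DNA only as a dimer with a DP protein such as TFDP1. In liver tumours this pathway is often disturbed, and RB1 is a classical tumour suppressor.

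The expression values were FPKM, reads scaled to the exon length of the gene and to the depth of the library, from libraries of 15861039 to 17572714 reads. DAGLA itself was 9.42, 9.40 and 9.02 FPKM in the Hep3B-Con libraries and 4.62, 4.46 and 4.78 FPKM in the Hep3B-KD libraries, a log2 fold change of -0.99 (SE 0.0441, limma adjusted p = 5.25e-06). All 8 hepatocyte markers (such as ALB and AFP) were detected in every library, with a sum of 2527 to 2577 FPKM in Hep3B-Con and 4053 to 4072 FPKM in Hep3B-KD. The highest single marker value was 2071 FPKM in Hep3B-Con and 3323 FPKM in Hep3B-KD, so the sums leaned on few genes. Of the markers 7 rose while FGB fell, and SERPINA1 lost its call with centring on the median log ratio (log2 0.026). Among all genes tested, 36.1% were called upwards and 23.8% downwards. Of the markers of leukocytes, endothelium, fibroblasts and macrophages, 7 were in the table, with a sum of 1.01 to 1.20 FPKM in Hep3B-Con and 0.641 to 0.731 FPKM in Hep3B-KD. COL1A1, a collagen gene, made up most of the Hep3B-Con sum and fell by 1.20 on the log2 scale. It passed the filter of 0.5 FPKM only through its Hep3B-Con level. With a filter of 1 FPKM it was not tested, and over the other settings its log2 fold change ran from -1.62 to -0.46. The other markers of this kind stayed at or below 0.385 FPKM in every library, and CDH5 was listed at 0 in all Hep3B-KD libraries. The part of the higher hepatocyte markers in the results below was not tested. In RNA from whole cultures, a change in the share of cells in a phase of the cell cycle and a change in RNA per cell cannot be told apart.

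In Hep3B-KD cells the activator E2F1 rose 1.81-fold, while TFDP1 fell 2.04-fold, the atypical repressor E2F7 fell 1.66-fold and E2F4 fell 1.43-fold. E2F3 and RBL2 fell by less, and RBL1, E2F2 and E2F8 did not pass the test. RB1 lay below the filter on low values and was read separately. Of the 9 members tested with limma on log2(FPKM + 0.1), 6 passed an adjusted p of 0.05, 1 upwards and 5 downwards. Among all 14221 genes tested 59.9% passed, 36.1% upwards and 23.8% downwards, so passing the test was common in these libraries. Of the genes called 60.2% were higher, and 48.5% after centring on the median log ratio, while the members split 1 to 5 under both. All genes together had a median of 0.11 on the log2 fold scale, and the 9 members a median of -0.27. The reported tests compared each gene with no change, so this upward shift was not taken out of the fold changes or calls. With a fold change of at least 2 in addition, which 2.94% of all genes met downwards, TFDP1 was the only member left, and with quantile normalization (TFDP1 at -0.88) there was none.

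**Figure D1:**
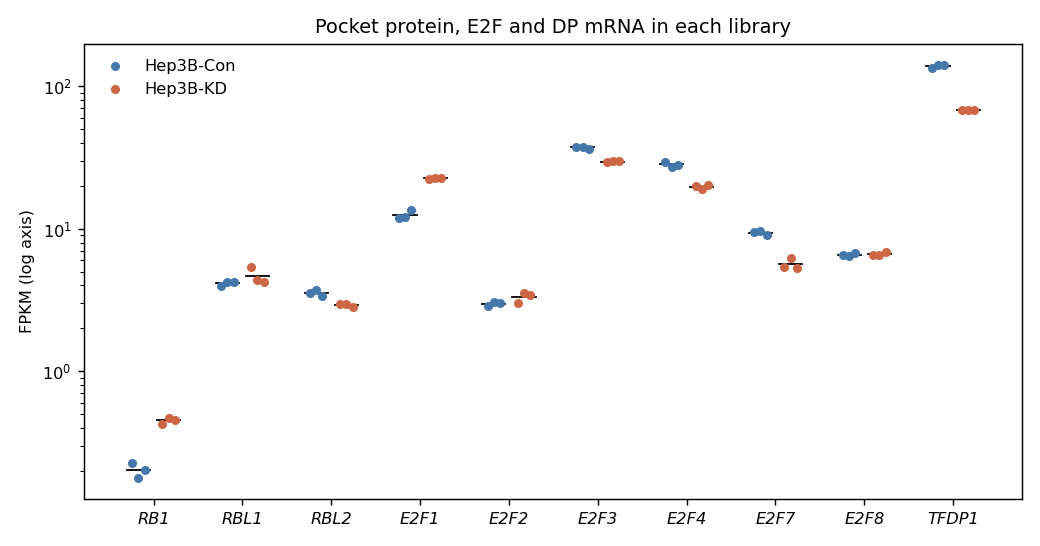
FPKM of each member in the 6 libraries on a log axis, with Hep3B-Con in blue, Hep3B-KD in orange and the mean of each group as a black line. The groups stand apart for RB1, RBL2, E2F1, E2F3, E2F4, E2F7 and TFDP1 and overlap for RBL1, E2F2 and E2F8. The share of all genes whose groups stand apart is not given here, and 59.9% of all genes tested passed an adjusted p of 0.05. TFDP1 near 139 and 67.9 FPKM lies far above RB1 at 0.204 and 0.454 FPKM.

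E2F genes and their partners can carry E2F sites in their own promoters, and 4 promoters are shown. E2F1 rose, TFDP1 fell, and E2F2 and RBL1 did not pass the test. Each is the RefSeq window of 300 bases around the annotated start (GRCh38.p14), written 5′ to 3′ on the strand of the gene. Capitals mark the letters TTTGGCGC, TTTCCCGC, TTTGCCGC or TTTCGCGC on either strand, so that a match on the other strand appears as its reverse complement. The windows of E2F1 (chr20:33686336-33686635, minus strand), E2F2 (chr1:23531184-23531483, minus strand), RBL1 (chr20:37095948-37096247, minus strand) and TFDP1 (chr13:113584503-113584802, plus strand) read as follows.
E2F1: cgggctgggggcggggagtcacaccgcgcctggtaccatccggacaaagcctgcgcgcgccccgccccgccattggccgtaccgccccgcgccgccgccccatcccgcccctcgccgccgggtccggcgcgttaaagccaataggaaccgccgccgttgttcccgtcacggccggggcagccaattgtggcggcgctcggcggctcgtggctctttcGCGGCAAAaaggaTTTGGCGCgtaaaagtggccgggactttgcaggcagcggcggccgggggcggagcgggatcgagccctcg
E2F2: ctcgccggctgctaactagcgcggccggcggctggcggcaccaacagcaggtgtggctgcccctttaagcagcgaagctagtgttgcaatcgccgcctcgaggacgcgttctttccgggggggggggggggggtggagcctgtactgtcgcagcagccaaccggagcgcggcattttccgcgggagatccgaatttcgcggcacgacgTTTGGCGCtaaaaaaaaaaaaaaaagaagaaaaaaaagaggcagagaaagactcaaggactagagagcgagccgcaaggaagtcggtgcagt
RBL1: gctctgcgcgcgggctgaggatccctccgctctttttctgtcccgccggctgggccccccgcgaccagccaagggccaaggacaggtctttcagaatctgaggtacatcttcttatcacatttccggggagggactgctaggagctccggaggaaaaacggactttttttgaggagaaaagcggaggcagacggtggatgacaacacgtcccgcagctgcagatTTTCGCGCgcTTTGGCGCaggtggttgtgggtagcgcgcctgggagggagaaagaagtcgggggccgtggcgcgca
TFDP1: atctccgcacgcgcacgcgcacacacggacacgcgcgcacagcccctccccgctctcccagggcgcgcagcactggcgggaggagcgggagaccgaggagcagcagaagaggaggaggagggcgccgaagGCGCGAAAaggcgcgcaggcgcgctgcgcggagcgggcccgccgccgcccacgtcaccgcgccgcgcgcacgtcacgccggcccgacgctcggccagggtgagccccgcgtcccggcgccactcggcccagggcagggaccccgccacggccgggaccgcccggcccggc

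In E2F1 the letters began at position -20 from the start site, with the other match at -33, and in RBL1 they began at -16 and -26. E2F2 held them at -42 and TFDP1 at -120. Any of the 4 words was found in 3.31% of all 35116 windows, and TTTGGCGC, which E2F1, E2F2 and RBL1 share, in 0.652%. E2F3 also held a match, TTTCCCGC at -53, in the first of its windows. Thus 5 of the 9 members with a window carried the letters, as did 634 of all 9354 tested genes with a window. E2F4, E2F7 and RBL2 had no match in their windows, the RB1 window lay inside the gene and away from its first exon, and E2F8 had no entry. Of the 5 genes with the letters E2F1 rose, E2F3 and TFDP1 fell, and RBL1 and E2F2 did not pass the test. Among all tested genes with a window the median log2 fold change was 0.11 for the 634 with the letters and 0.09 for the 8720 without, and 68.3% and 66.7% passed the test.

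The word TTTGAA, known as a CHR element of DREAM-regulated promoters, was looked for as well, together with TTCGAA. It occurred in E2F3 at -65 and in RBL2 at position 25 after the start, and in 15.2% of all windows. E2F3 was therefore the only member whose window held an E2F word and a CHR word. A match of letters in these windows is a description and not a measured binding site.

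The levels of the 10 genes spanned a wide range in control cells. Per length of exon, TFDP1 was highest at 139 ± 3.62 FPKM (SD, n = 3) in Hep3B-Con, followed by E2F3, E2F4, E2F1, E2F7, E2F8, RBL1, RBL2 and E2F2, with RB1 last at 0.204 ± 0.0255 FPKM. No 2 neighbours in this order overlapped among the 3 Hep3B-Con libraries. In Hep3B-KD the order changed at 3 places, where E2F1 passed E2F4, E2F8 passed E2F7 and E2F2 passed RBL2. There the libraries of E2F7 and RBL1 overlapped, and no other neighbours did. TFDP1 lay at the 98.0 percentile of the mean levels of all tested genes, E2F3 at 90.7 and E2F2 at 39.2.

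Of the pocket proteins, RB1 (ENSG00000139687, chr13:48303726-48599436 in GRCh38, plus strand) encodes the retinoblastoma protein. It was 0.229, 0.178 and 0.205 FPKM in the Hep3B-Con libraries and 0.430, 0.473 and 0.458 FPKM in the Hep3B-KD libraries. All Hep3B-KD values lay above all Hep3B-Con values, but these were only 20 to 26 reads per library in Hep3B-Con and 44 to 49 in Hep3B-KD. The ratio of the mean levels was 2.22, from 68 against 142 reads in all. With no filter on low values, a setting chosen after seeing the data, limma gave a log2 fold change of 0.87 (SE 0.237, adjusted p = 0.0381), and 17.2% of all 29908 genes then passed upwards. Over 15 other settings the log2 fold change ranged from 0.27 (pseudocount 1) to 1.14 (voom on reads) and the adjusted p from 0.00158 to 0.156, and the call was lost in 7 of them, among them the fits without Hep3B-Con replicate 2 (0.0587) or 3 (0.0550) and without Hep3B-KD replicate 2 (0.0552) or 3 (0.0505).

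Low genes as a whole were higher in Hep3B-KD. Among the 5790 genes with a mean of 0.1 to 0.5 FPKM, 65.9% had a higher value in Hep3B-KD, the median log2 fold change was 0.28, and 23.4% rose at least as far as RB1. In 21.2% of these genes every Hep3B-KD library lay above every Hep3B-Con library, as in RB1, and in 4.97% every one lay below. The libraries also differed in how many genes had any read, 22338 to 22605 in Hep3B-Con and 23416 to 23591 in Hep3B-KD, and the part of this difference in the RB1 value was not tested. RB1-DT, a noncoding gene that starts beside RB1 on the other strand, had at most 2 reads in any library.

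The genes beside RB1 on chromosome 13 did not move together. Of 8 neighbours, 6 passed the filter, 1 of them rose and 2 fell, with a median log2 fold change of 0.12 that turned to -0.06 with quantile normalization. By comparison, 36.1% of all genes rose and 23.8% fell. ITM2B rose from 6.77 to 9.94 FPKM (log2 0.55) and FNDC3A fell from 6.10 to 5.10 FPKM (-0.25). SUCLA2 (log2 0.11), MED4 (0.14) and RCBTB2 (0.54, adjusted p = 0.0770) did not pass, LPAR6, which lies within an intron of RB1, was at 0.443 and 0.513 FPKM below the filter, and CYSLTR2 was not analysed here. RCBTB2 passed as a rise without a trend, with an ordinary linear model and with voom (adjusted p 0.0104 to 0.417 over the settings).

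RBL1 (ENSG00000080839, chr20:36996349-37095995, minus strand), the p107 protein that rises as cells enter the cycle, was 3.96, 4.24 and 4.21 FPKM in Hep3B-Con and 5.38, 4.40 and 4.24 FPKM in Hep3B-KD. Hep3B-KD replicate 1 stood above the rest, while the other Hep3B-KD libraries lay at or just above the highest control. The log2 fold change was 0.17 (95% interval -0.06 to 0.39, adjusted p = 0.175), and no setting tried brought it past the threshold.

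RBL2 (ENSG00000103479, chr16:53433977-53491649, plus strand), the p130 protein of resting cells, was 3.53, 3.69 and 3.37 FPKM in Hep3B-Con and 2.96, 2.95 and 2.83 FPKM in Hep3B-KD. Its groups did not overlap, and it fell by 0.27 on the log2 scale (SE 0.0591, adjusted p = 0.00719). Of its exon bases, 18.2% are shared with AKTIP and AC007342.6 on the opposite strand, and without strand information their reads cannot be told apart. The shared bases were not split between these genes. AKTIP, named after its values were seen, moved the other way, from 1.22 to 1.80 FPKM.

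Within a library the ratio of RBL1 to RBL2 does not change when all its values are multiplied by a common factor. It was 1.12, 1.15 and 1.25 in Hep3B-Con and 1.82, 1.49 and 1.50 in Hep3B-KD. Every Hep3B-KD ratio lay above every Hep3B-Con ratio, a difference of 0.45 on the log2 scale, for which the exact two-sided permutation test gave p = 0.1, the smallest value that 3 against 3 libraries allow. The summed level of RBL1 and RBL2 was nearly level, at 7.67 ± 0.237 FPKM (SD, n = 3) in Hep3B-Con and 7.59 ± 0.666 FPKM in Hep3B-KD. RB1 stayed far below both in every library.

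Among the activator factors, E2F1 (ENSG00000101412, chr20:33675683-33686404, minus strand), which can drive S phase entry and apoptosis, showed the only rise. It was 11.8, 12.04 and 13.5 FPKM in Hep3B-Con and 22.2, 22.7 and 22.8 FPKM in Hep3B-KD. The lowest Hep3B-KD library lay well above the highest Hep3B-Con library, and the log2 fold change was 0.85 (SE 0.0543, adjusted p = 2.18e-05). Over the 17 other settings it ran from 0.75 to 0.91, each past the threshold. By size of change it was number 2145 of the 14221 genes.

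E2F2 (ENSG00000007968, chr1:23506430-23531220, minus strand), an activator of similar binding, was 2.87, 3.06 and 3.02 FPKM in Hep3B-Con and 3.0, 3.51 and 3.42 FPKM in Hep3B-KD. Hep3B-KD replicate 1 lay among the controls and the other Hep3B-KD libraries lay above them. The log2 fold change was 0.15 (95% interval -0.04 to 0.33, adjusted p = 0.142), turned to -0.046 with quantile normalization, and passed the test without Hep3B-KD replicate 1 (0.21, adjusted p = 0.0380, in a range of 0.0380 to 0.662 over the settings).

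E2F2 was also the only member whose longest annotated 3′ UTR held the match to bases 2 to 8 of the guide strand of the DAGLA hairpin. The guide strand was taken to be the exact reverse complement of the target sequence that the study lists, which does not give the guide itself. It held 3 such matches, which 14.5% of 11198 tested genes with a 3′ UTR hold at least once. Genes with the match had a median log2 fold change of -0.04 and genes without it one of 0.11, and the part of the matches in the E2F2 value was not tested. These medians take no account of 3′ UTR length, and the 3′ UTR of E2F2 was the longest among the members. The first lies at base 1250 of the 3453-base 3′ UTR of E2F2-201, shown with the match in capitals.
E2F2 3′ UTR: cagaccagGCCTTCAcagctaat

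E2F3 (ENSG00000112242, chr6:20401906-20493715, plus strand), the most abundant E2F here, was 37.3, 37.6 and 36.4 FPKM in Hep3B-Con and 29.2, 29.6 and 29.8 FPKM in Hep3B-KD. The libraries within each group were close to each other and the groups did not overlap, with a fall of 0.33 on the log2 scale (SE 0.0232, adjusted p = 3.49e-05). Its processed pseudogene E2F3P2 had at most 1 read in any library and the intronic gene E2F3-IT1 at most 6.

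The make-up of the activators changed with these opposite moves. E2F1 made up 23.7 ± 1.61% of the summed E2F1, E2F2 and E2F3 level in Hep3B-Con and 40.7 ± 0.0767% in Hep3B-KD (SD, n = 3), a share chosen after the values were seen and given without a test. Over all 6 member E2F genes the summed level was 96.8 ± 0.694 FPKM in Hep3B-Con and 87.4 ± 1.12 FPKM in Hep3B-KD. The family was thus lower in sum while E2F1 was higher.

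**Figure D2:**
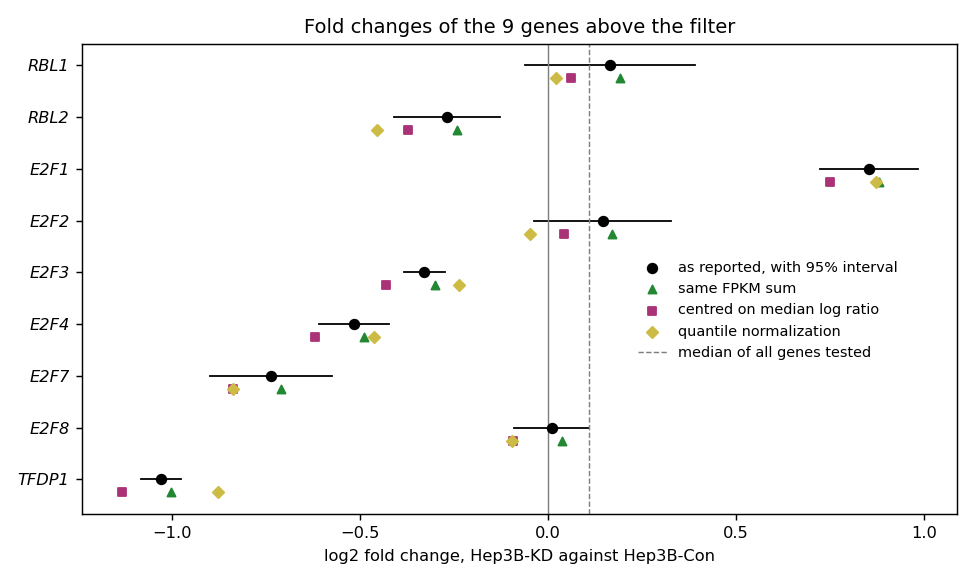
Log2 fold change of the 9 tested members, Hep3B-KD against Hep3B-Con, as black points with the 95% interval of limma, and under 3 other scalings of the libraries as coloured symbols, with the median of all genes (0.11) as a dashed line. E2F1 lies to the right of it and RBL2, E2F3, E2F4, E2F7 and TFDP1 lie to the left of 0 under every scaling shown, while E2F2 and E2F8 cross 0.

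Of the factors that act mainly as repressors, E2F4 (ENSG00000205250, chr16:67192169-67198918, plus strand) was 29.4, 27.1 and 28.1 FPKM in Hep3B-Con and 19.9, 19.1 and 20.2 FPKM in Hep3B-KD. All Hep3B-KD libraries lay well below the controls, a fall of 0.51 on the log2 scale (SE 0.0389, adjusted p = 4.71e-05). Its level relative to the sum of RBL1 and RBL2, its partners in DREAM, was 3.69 ± 0.256 in Hep3B-Con and 2.61 ± 0.238 in Hep3B-KD (SD, n = 3), again a ratio chosen after the values were seen and not tested.

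E2F7 (ENSG00000165891, chr12:77021247-77065580, minus strand) and E2F8 are the atypical factors, which bind DNA without a DP partner, repress E2F targets in S and G2 phase and promote the polyploidy of liver cells. E2F7 was 9.47, 9.69 and 9.04 FPKM in Hep3B-Con and 5.37, 6.18 and 5.31 FPKM in Hep3B-KD. Its groups lay far apart and it fell by 0.73 on the log2 scale (SE 0.0676, adjusted p = 0.000116), the largest fall of an E2F member under the reported setting.

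E2F8 (ENSG00000129173, chr11:19224063-19241620, minus strand) was 6.54, 6.48 and 6.73 FPKM in Hep3B-Con and 6.52, 6.51 and 6.87 FPKM in Hep3B-KD. The groups covered almost the same range, with a log2 fold change of 0.01 (95% interval -0.09 to 0.11, adjusted p = 0.844) that turned to -0.093 with centring on the median log ratio and to -0.096 with quantile normalization. The intervals of E2F7 and E2F8, close relatives, did not overlap, although the difference between them was not tested.

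The summed level of E2F7 and E2F8 relative to that of E2F1, E2F2 and E2F3 was 0.308, 0.307 and 0.298 in Hep3B-Con and 0.218, 0.227 and 0.217 in Hep3B-KD. Atypical repressors were thus lower relative to activators in every Hep3B-KD library, by 0.46 on the log2 scale, in a ratio that no common factor for a library changes (exact two-sided permutation test, p = 0.1, the smallest value possible). E2F7 in the numerator fell and E2F1 in the denominator rose, while E2F3 in the denominator fell.

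TFDP1 (ENSG00000198176, chr13:113584721-113641470, plus strand) encodes DP1, the usual dimer partner of the E2F factors. It was 135, 141 and 141 FPKM in Hep3B-Con and 68.2, 67.8 and 67.8 FPKM in Hep3B-KD. The fall of 1.03 on the log2 scale (SE 0.0225, adjusted p = 3.66e-07) was the largest among the members and rested on 4049 to 9171 reads per library. It ran from -1.13 to -0.88 over the settings. By size of change TFDP1 was number 1445 of the 14221 genes.

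TFDP1 also fell relative to the E2F genes. Its level over the summed level of the 6 member E2F genes, E2F7 and E2F8 included, was 1.43 ± 0.0465 in Hep3B-Con and 0.777 ± 0.0128 in Hep3B-KD (SD, n = 3), so that it was above the E2F sum in all controls and below it in all Hep3B-KD libraries. Against TFDP2, the other DP gene, its ratio went from 30.4 ± 1.15 to 12.7 ± 0.730. Both ratios were chosen after the values were seen and have no test.

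**Figure D3:**
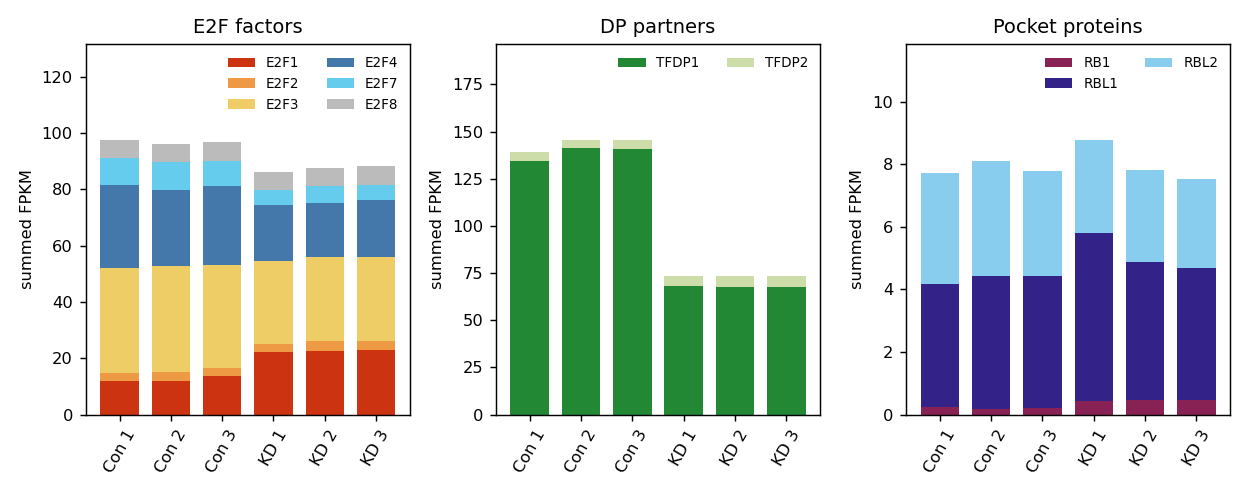
Stacked FPKM of the member E2F factors, of the DP genes and of the pocket proteins in each library, with bars from 0 and a separate scale in each panel. E2F1 widens in Hep3B-KD while the E2F sum goes from 96.8 to 87.4 FPKM, TFDP1 is about 139 in Hep3B-Con and 67.9 in Hep3B-KD, and the RBL1 and RBL2 sum stays near 7.6 FPKM with RB1 as a thin band.

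The 3 remaining genes of the family with a value behaved like their relatives only in part. E2F5, which like E2F4 binds the pocket proteins p107 and p130, fell from 3.42 to 2.53 FPKM (log2 -0.42, adjusted p = 0.0124), in the direction of E2F4. E2F6, a repressor that needs no pocket protein, was 8.55 and 8.14 FPKM (-0.07, adjusted p = 0.121), and it passed as a fall with centring on the median log ratio, with quantile normalization and with an ordinary linear model (adjusted p 0.0044 to 0.327 over the settings). TFDP2 rose from 4.57 to 5.37 FPKM (0.23, adjusted p = 0.0105), opposite to TFDP1, and it lost its call with centring on the median log ratio and with quantile normalization. TFDP3 was not analysed here.

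Of 7 tested genes of the MuvB complex, which joins RBL1, RBL2 and E2F4 in DREAM, and of its MYB and FOXM1 partners, 3 rose and 2 fell, with a median of 0.21. For all genes the shares were 36.1% upwards and 23.8% downwards. LIN52, a MuvB subunit whose phosphorylation joins p107 or p130 to the complex, rose from 4.22 to 5.96 FPKM (log2 0.49) and RBBP4 rose from 25.6 to 31.1 FPKM (0.28). LIN9 (0.21, adjusted p = 0.0775, past the threshold with voom and without Hep3B-KD replicate 3, with 0.0214 to 0.524 over the settings) and LIN54 (-0.08) did not pass, and LIN37, which shares 54.0% of its exon bases with other genes, was near 0.2 FPKM and below the filter. LIN54 passed as a fall with centring and with quantile normalization (adjusted p 0.0170 to 0.692 over the settings). The MYB factors that bind MuvB in its activating form moved apart. MYBL1 rose from 0.281 ± 0.0292 to 1.49 ± 0.103 FPKM (log2 2.06), while the far more abundant MYBL2 fell from 133 ± 1.23 to 83.1 ± 2.38 FPKM (-0.67), and FOXM1, a further activator of mitotic genes, fell from 38.0 to 31.6 FPKM (-0.27). The Hep3B-Con level of MYBL1 lay below the filter of 0.5 FPKM, so MYBL1 was tested only through its Hep3B-KD level. With a filter of 1 FPKM MYBL1 was not tested and 2 genes of the list rose. Its log2 fold change was 0.96 with a pseudocount of 1 and 2.39 with voom.

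Of the cyclins and kinases that phosphorylate the pocket proteins, 8 of 9 were tested, 3 rose and 5 fell (median -0.19). This compares with 36.1% of all genes that rose and 23.8% that fell. The cyclin E genes, which are known E2F targets, rose, CCNE1 from 17.1 to 30.2 FPKM (log2 0.82) and CCNE2 from 3.44 to 5.53 FPKM (0.67). CDK6 rose as well (0.63). The part of E2F1 in these rises was not tested. CCNA2 fell by 0.54, CCND1 by 0.40, CDK4 by 0.27, CCND3 by 0.24 and CDK2 by 0.15 on the log2 scale, the last with a weak call (adjusted p = 0.0278) that was lost in 7 of 17 other settings, namely rescaling to the same FPKM sum, an ordinary linear model, a replicate block and the fits without Hep3B-Con replicate 1, 2 or 3 or Hep3B-KD replicate 2 (adjusted p 0.00314 to 0.0741 over the settings). CCND2 lay below the filter.

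All 7 inhibitors of these kinases were tested, and 3 rose and 2 fell (median 0.21, -0.03 with quantile normalization, and 2 against 3 called after centring on the median log ratio). The counts of the inhibitors and of the corepressors below stand beside 36.1% of all genes that rose and 23.8% that fell. CDKN1C (p57) rose from 55.0 ± 1.46 to 188 ± 6.69 FPKM (log2 1.77) and CDKN2C (p18) from 1.22 to 2.77 FPKM (1.15). CDKN2B (p15) fell from 10.9 ± 0.309 to 2.16 ± 0.309 FPKM (-2.29) and CDKN1A (p21) from 11.6 to 7.45 FPKM (-0.63). CDKN1B (p27) gave 0.21 (adjusted p = 0.0114), a call lost with centring (adjusted p 0.000354 to 0.122 over the settings). CDKN2D gave 0.21 (adjusted p = 0.136), and CDKN2A, with 43.9 ± 12.4 and 29.5 ± 6.60 FPKM, varied between libraries and did not pass (-0.56, adjusted p = 0.0720), except with centring, with voom and without Hep3B-KD replicate 2 (adjusted p 0.00128 to 0.196 over the settings). Among 15 corepressors and regulators of RB, 4 rose and 4 fell (3 and 8 after centring on the median log ratio, 6 and 3 after rescaling to the same sum), led by the RB-binding proteins ARID4A (log2 1.47), ARID4B (0.83) and RBBP8 (0.49) upwards and SKP2, the ubiquitin ligase subunit that removes p27 and is itself an E2F target, downwards from 62.0 to 33.4 FPKM (-0.89), followed by SUV39H1 (-0.35) and PSMD10 (-0.23). PSMD10 lost its call in 7 of 17 other settings, with no filter, without a trend, with an ordinary linear model and without Hep3B-Con replicate 1, 2 or 3 or Hep3B-KD replicate 2 (adjusted p 0.00542 to 0.0825).

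Known target genes were read beside their regulators E2F1 to E2F8, without a test of the lists. Of 33 tested target genes of the G1/S transition, 18 rose and 10 fell (14 and 12 after centring on the median log ratio), with a median of 0.14 near the 0.11 of all genes. The shares of all genes were 36.1% upwards and 23.8% downwards. Among the rises were MCM6, a helicase subunit, from 31.7 to 76.4 FPKM (log2 1.27), and HELLS, a chromatin remodeller (0.67). RRM2, a ribonucleotide reductase subunit, fell from 18.5 to 9.23 FPKM (-1.0), TK1 by 0.53 and FEN1 by 0.45.

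The target genes of G2/M phase, which RBL1, RBL2 and E2F4 silence within DREAM and MYBL2 and FOXM1 activate, had a median log2 fold change of -0.40. Of 25 genes 16 fell and 4 rose, against 23.8% of all genes that fell and 36.1% that rose. TPX2, a spindle assembly factor, fell from 193 to 110.0 FPKM (-0.81), AURKB by 0.76 and BUB1B by 0.73, while TOP2A rose by 0.31, CENPF by 0.27 and TTK by 0.19. TTK lost its call in 9 of 17 other settings, among them no filter, centring, a replicate block and the fits without Hep3B-Con replicate 1 or 3 or Hep3B-KD replicate 1 or 3 (adjusted p 0.00617 to 0.248). The rises on this list numbered 2 to 5 over the settings and the falls 16 or 17. Under each scaling tried the G2/M median stayed between -0.50 and -0.37.

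E2F1 can also activate genes of apoptosis, and of 7 tested ones 5 rose and 1 fell, with a median of 0.41 (3 and 2 after centring on the median log ratio or quantile normalization). Rises were common in these libraries, with 36.1% of all genes called upwards and 23.8% downwards. BCL2L11 (BIM) rose from 8.42 to 13.4 FPKM (log2 0.66) and TP73 from 0.579 to 0.868 FPKM (0.51, adjusted p = 0.0355), with APAF1 (0.27) in the same direction. APAF1 lost its call with centring and with quantile normalization (adjusted p 0.00022 to 0.0722 over the settings). The call of TP73 was lost in 10 of 16 other settings, among them no filter, a replicate block and each fit without a library (adjusted p 0.00142 to 0.376), and without any 1 library 4 genes of the list rose. BBC3 (PUMA) fell from 3.67 to 2.26 FPKM (-0.67), CASP8 gave -0.13 (adjusted p = 0.0726, past the threshold with centring and with quantile normalization), and PMAIP1 and HRK lay below the filter.

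**Figure D4:**
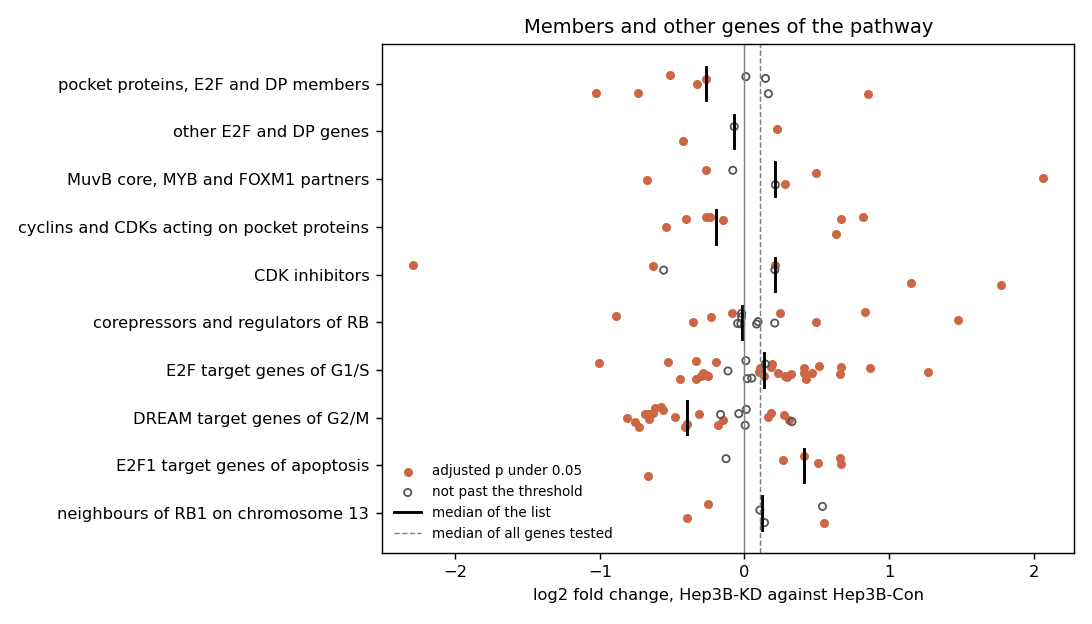
Log2 fold change of each tested gene by list, Hep3B-KD against Hep3B-Con, filled where the adjusted p was under 0.05, with the median of each list as a black bar and that of all genes (0.11) as a dashed line. Only the members, the cyclins and kinases and the G2/M genes have a median below -0.1, and CDKN2B (-2.29) and MYBL1 (2.06) lie at the ends. MYBL1 passed the filter only through its Hep3B-KD level.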

How the data were processed

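The 3 Hep3B-Con and 3 Hep3B-KD samples had been sequenced as RNA libraries on an Illumina instrument, and groups were taken from the sample titles. The authors deposited 1 table of FPKM values for 29908 genes, with 0 further value columns. The submitters' processing notes name TopHat2 2.0.12, Bowtie2 2.0.6 and GRCh37, whereas the exon lengths of GENCODE release 29 (GRCh38) turned 100% of the deposited FPKM values into whole reads (within 0.01), which gave the depth of each library. The counting program is not given in the sources used here, nor whether it used strand. Replicates differed from each other beyond counting noise (chi-square per gene 1.78 to 3.11).

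Genes averaging 0.5 FPKM or more over the libraries (14221) were taken to the log2(FPKM + 0.1) scale. That scale understates the change of low genes. Genes were tested with limma 3.58.1 (trend, no replicate block) in R 4.3.3, two-sided. Benjamini-Hochberg adjustment covered all tested genes, which were called at an adjusted p under 0.05. Counting noise limits the precision of genes with few reads, and intervals cover the spread between these libraries only. Ratios between members used an exact permutation test. Alternatives were other filters, pseudocounts, scalings and variance models, a replicate block, voom on the recovered reads, and each library left out in turn. The fit was checked on simulated reads.

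The members and the gene lists were chosen with earlier results of these data known. All members, DAGLA, every gene of a list of 9 or fewer, every marker and up to 3 rises and 3 falls of each other list could be named, and genes outside this rule are marked in the text. A few genes of the lists are counted in them but are not reported here by name. Promoter windows came from RefSeq (GRCh38.p14), gene positions and 3′ UTRs from GENCODE release 29, and the hairpin from the study's supplement. Python 3.11.15 with pandas 2.3.3, scipy 1.17.1 and matplotlib 3.10.9 handled tables and figures.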

Additional observations from a re-analysis of the deposited data

How the results depend on the processing

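The 6 called members (RBL2, E2F1, E2F3, E2F4, E2F7 and TFDP1) kept their direction and stayed past the threshold under all 17 alternatives, and RBL1 stayed short of it. E2F8 reversed to -0.093 with centring on the median log ratio, to -0.096 with quantile normalization, to -0.0012 without Hep3B-Con replicate 2 and to -0.015 without Hep3B-KD replicate 3 (range without 1 library -0.015 to 0.026 with an adjusted p of 0.676 to 0.985, and 0.0973 to 0.985 over all alternatives), and E2F2 reversed to -0.046 with quantile normalization and passed the test without Hep3B-KD replicate 1 (0.21). With no filter, RB1 lost its call with centring (log2 0.76, adjusted p = 0.0623), with quantile normalization (0.56, adjusted p = 0.156) and in 4 of the 6 fits without a library. A pseudocount of 1 left 503 genes past a fold change of 2 in place of 1256. Of the called genes 60.2% rose, against 48.5% after centring on the median log ratio, 52.3% with quantile normalization and 63.1% after rescaling to the same FPKM sum, which moved the median of all genes from 0.11 to 0.01, 0.01 and 0.14. The causes were not tested.

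Deviations of libraries with the same replicate number correlated at -0.0134, -0.0656 and -0.0011, and those with different numbers at -0.0356 to 0.0491. These values gave no sign of pairing by number. Whether libraries of the same number shared a culture or preparation was not tested. With the number as a replicate block 6 members and 7919 genes were called, RB1 without a filter lost its call (adjusted p = 0.104, in a range of 0.00158 to 0.156).

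With 3 libraries a group, ratios cannot go below an exact p of 0.1. RB1 rests on 20 to 49 reads per library, which limits its fold change.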
